A study of Rattus norvegicus with 20 samples.

Results

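Soleus muscle of rats whose sciatic nerve had been released from chronic entrapment was set against soleus muscle of the sham control, to describe which microRNAs (miRNAs) still differed from sham 3 months after decompression. The comparison takes in 4 of the 20 arrays of the series, chosen by their labels: 3 soleus arrays of decompressed rats and the 1 soleus array of the sham control. All rats were adult male Sprague-Dawley rats. In the decompression group a silastic tube was left around the sciatic nerve for 6 months and then taken off, and the muscle was collected 3 months later. The sources used here do not describe the sham operation or give a time for it. The other 6 soleus arrays, 3 of muscle 6 months after the sciatic nerve was cut and a piece of it removed and 3 of muscle after 6 months of entrapment without release, entered the statistical fit for their spread, and 10 arrays of dorsal root ganglia (DRGs) served for 1 contrast between tissues. The label of the sham array calls it biological replicate 1, and does not say whether it holds RNA of 1 rat or of several, while the study's methods speak of 3 rats in each group. It has no replicate, so the sham group carries no spread of its own.

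miRNAs are short RNAs cut from hairpin precursors. They bind messenger RNAs mainly through the seed, bases 2 to 8 from the 5′ end, and lower the output of those messengers. The soleus is a slow, postural muscle of the lower leg, supplied by the sciatic nerve through its tibial branch. Skeletal muscle is known for a small set of miRNAs, miR-1, miR-133a, miR-133b, miR-206 and miR-499, that are transcribed with the muscle gene programme. miR-206 is known to respond to loss of the nerve and to help the re-growth of neuromuscular synapses.

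The arrays carried 350 rat miRNAs, of which 348 had 1 name in every file. The sham array detected 152 of them and the decompression arrays 145, 138 and 136. Values below are scaled signals: the intensity of each miRNA after the 75th percentile of each array, over the 108 miRNAs detected on all 10 soleus arrays, was set to a common level. Unscaled, this percentile was 409 for sham against 958 to 1117 for the decompression arrays. Signals under a detection floor of 2.72 were set to it. Of the 6 tested muscle-enriched miRNAs, 4 had levels that go with the tissue label. These were miR-1, miR-133a, miR-133b and miR-206, which were detected on all 4 arrays. In that order they had 13071, 6537, 184170 and 3799 on soleus sham. On DRG sham they had 65.5, 14.6, 186 and 41.7, with each tissue scaled on its own. miR-499 and miR-1*, the other arm of a miR-1 hairpin, went the other way. Neither was detected on soleus sham, at 3.35 and 3.44, against 13.9 and 13.6 on DRG sham. miR-499 was detected on all 3 decompression arrays.

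The sham file stood apart in several ways. It has the layout of the files of denervation replicates 1 and 2 and not that of the decompression files. Among the control features, 4 were bright on sham (676 to 99253 unscaled) and at or below 0 on every decompression array, and of these 3 were also bright on both denervation arrays just named and the other on 1 of them. Outside these, the control feature dmr_6_21 had a scaled 37952 on sham and lay at the floor on every decompression array. For dmr_6_22 the scaled sham signal was 975 and the median log2 difference −8.49. On the scale of the miRNAs, 12 of the 37 control features above the floor were at least 2-fold lower and 6 at least 2-fold higher on every decompression array than on sham. Of the control signals of sham, 11, each of 20 or more, equal control signals of other soleus arrays in every digit. How far this also holds between the other arrays is not given here. With rows as named, the log2 signals of the sham miRNAs had correlations of 0.842 to 0.888 with the decompression arrays. With all sham rows moved together by up to 3 places, the correlations were 0.063 to 0.192. The rows were thus not moved together in this way, but single rows or values that were swapped or changed would not show here. The part of these features in the results was not tested. With 1 sham array, the sham condition and the handling of that array cannot be told apart.

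A table of processed values was also deposited. It equals the scanner signals up to a constant for each array, apart from 11 values of 6 miRNAs on these 4 arrays. For miR-1 on sham the scanner file lists 4895 and the processed table, at the same scale, 48095. The processed values of miR-499 are 10 times the scanner values on all 3 decompression arrays. The others are miR-139-3p (156.9 in the scanner file, 456.9 processed), miR-204 (189 and 119) and miR-329 (54.7 and 147) on sham, and single or paired decompression values of miR-1, miR-329 and miR-466b. Scanner values are used throughout.

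The mature sequences of the miRNAs with the largest differences, and of relatives that share their seed, are given first, since the results turn on members of one family that part ways and on miRNAs of similar sequence that fell out of detection together. They are RefSeq sequences on build GRCr8, written 5′ to 3′ with the seed in capitals. The array uses older names, and the arm meant by a name without one was taken from the older nomenclature. The first 7 are miRNAs that were lower after decompression:
miR-188 (5p arm, chrX:17919595-17919615, plus strand): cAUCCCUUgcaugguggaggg
miR-139-3p (chr1:165290901-165290922, plus strand): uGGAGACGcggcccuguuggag
miR-125a-3p (chr1:67350727-67350748, plus strand): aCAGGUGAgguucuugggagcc
miR-874 (3p arm, chr17:6626076-6626097, plus strand): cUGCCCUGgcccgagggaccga
miR-494 (3p arm, chr6:134550163-134550185, plus strand): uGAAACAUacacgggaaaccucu
miR-743a (3p arm, chrX:150444098-150444119, minus strand): gAAAGACGccaaacuggguaga
miR-878 (chrX:150474263-150474284, minus strand): gCAUGACAccauacuggguaga
The next 9 are miRNAs that were higher, together with miR-26a and miR-30e, which share a seed with miR-26b and miR-30c and did not pass the test:
miR-126* (5p arm, chr3:29813182-29813202, plus strand): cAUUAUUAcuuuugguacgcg
miR-126 (3p arm, chr3:29813219-29813240, plus strand): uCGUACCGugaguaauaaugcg
miR-21 (5p arm, chr10:71902653-71902674, minus strand): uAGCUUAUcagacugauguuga
miR-26b (5p arm, chr9:83425723-83425743, plus strand): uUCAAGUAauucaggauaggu
miR-26a (5p arm, chr8:127633063-127633084, plus strand): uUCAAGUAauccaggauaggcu
miR-322 (5p arm, chrX:137726198-137726219, minus strand): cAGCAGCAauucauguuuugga
miR-195 (5p arm, chr10:55450509-55450529, plus strand): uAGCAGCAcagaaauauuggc
miR-30c (5p arm, 1 of its copies at chr5:139634505-139634527, minus strand): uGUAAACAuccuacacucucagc
miR-30e (5p arm, chr5:139637504-139637525, minus strand): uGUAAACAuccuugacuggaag

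After decompression, more miRNAs lay below sham than above it. A miRNA was tested if 3 or more of the 10 soleus arrays had detected it, which held for 173. Of these, 38 were lower (22%) and 17 were higher (9.83%) than sham in limma's test at an adjusted p of 0.05, and at an unadjusted p of 0.05 the counts were 52 and 20. By the rule of a 2-fold difference on each of the 3 decompression arrays, 47 were lower (27.2%) and 23 were higher (13.3%). Both rules picked 36 of the lower and all 17 of the higher miRNAs. The median log2 difference from sham over the 173 was −0.29, with 100 below 0 and 71 above. The median SD among the 3 decompression arrays was 0.30 on the log2 scale, and the median standard error of the difference, which takes the spread of the 9 injury arrays for the lone sham array too, was 0.51.

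**Figure D1:**
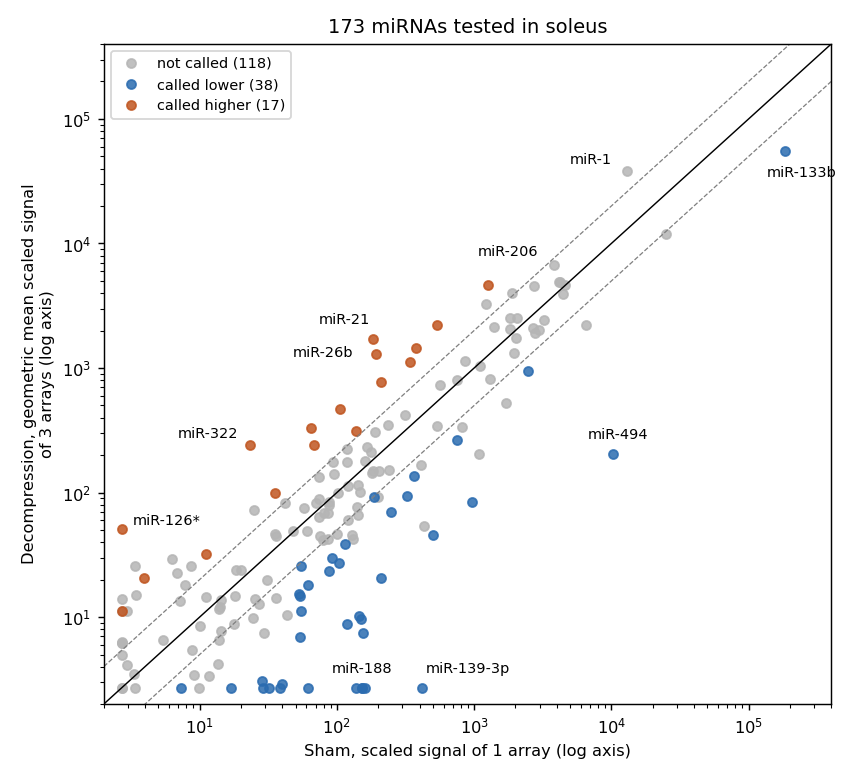
Scaled signal of each of the 173 tested miRNAs on the 1 sham array (horizontal) and as the geometric mean of the 3 decompression arrays (vertical), both on log axes. The solid line marks equal signal and the dashed lines a 2-fold difference. The 38 miRNAs called lower reach from the floor of 2.72, under miR-139-3p and miR-188, to miR-133b at the bright end, and the 17 called higher run from miR-126* at the sham floor upwards.

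The balance between lower and higher depended on the scaling. As described, 69.1% of the called miRNAs were lower. Without scaling the counts were 6 lower and 6 higher, with quantile scaling 23 and 31 (42.6% lower), with a rank-consistent loess against sham 21 and 18 (53.8% lower), and with the 75th percentile taken over all miRNAs 20 and 37 (35.1% lower). The median of all miRNAs moved with it, to 1.02, 0.17, 0.14 and 0.48 in that order. Directions of single miRNAs were steadier. Over these settings, a median scaling and both uses of the processed values, 34 of the 38 lower and all 17 higher miRNAs kept their direction. In the 5 scalings of the scanner values, 6 lower and 6 higher miRNAs passed the test each time. On the lower side these were miR-125a-3p, miR-139-3p, miR-188, miR-494, miR-743a and miR-878. Of these, miR-188, miR-743a and miR-878 reached the 3 arrays needed for the test only with sham counted. On the higher side the 6 were miR-126*, miR-21, miR-26b, miR-30a*, miR-30e* and miR-322. Leaving out 1 array also cost calls. Without decompression 1, miR-125b-5p, miR-133b, miR-145, miR-181a, miR-199a-5p, miR-29b, miR-30a*, miR-30b-5p, miR-30c, miR-338* and miR-379 no longer passed among the miRNAs named below, without decompression 2 miR-29b and miR-152 did not, and without decompression 3 miR-125b-5p, miR-142-5p, miR-145, miR-152, miR-199a-5p, miR-30a*, miR-30b-5p, miR-30c and miR-338* did not. miR-100, miR-199a-3p, miR-337, miR-434 and miR-99b each failed in 5 or more of the 9 fits that left out an injury array.

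A group of miRNAs detected in sham was not detected at all after release. On no decompression array were 25 of the 348 miRNAs (7.18%) detected that sham detected. Of these, 15 were detected on 3 or more of the 10 soleus arrays, sham included, and so were tested. miR-188 had a signal of 159 on sham and lay under the floor on decompression 1, 2 and 3, a difference of at least 56.5-fold (adjusted p from limma 1.11e-05). miR-743a and miR-878, a pair of X-linked miRNAs known from testis, had signals of 153.03 and 153.04 on sham and were under the floor on all 3 decompression arrays, at least 54.3-fold lower each (adjusted p from limma 3.01e-05 for both). Their mature sequences above share the last 10 bases, ACUGGGUAGA, and match at 18 of 22 positions when set flush at the 3′ end, so their probes may read partly the same RNA. The other 8 members of that X-linked cluster on the array were detected on neither side.

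miR-125a-3p (138 on sham, at least 49.0-fold lower) and miR-874 (62.1 on sham, at least 22.03-fold lower) behaved likewise. miR-139-3p gave the largest bound, at least 149-fold from a sham signal of 419, with adjusted p from limma 0.0031, 0.0022 for miR-125a-3p and 1.73e-05 for miR-874. On the 3 decompression arrays all of these sat at the floor, so that the groups did not overlap. The floor leaves no spread there, and none on the entrapment arrays for miR-743a, miR-878 and miR-874. The small p-values of these miRNAs and of miR-188 thus rest in part on the floor and not on a measured spread. No entrapment array detected miR-874, miR-878, miR-743a or miR-188, while 2 of the 3 denervation arrays detected each of them. Each of them thus reached the 3 arrays needed for the test only with sham counted, the array on which it was high. Signals of these miRNAs on the denervation arrays lay between 6.12 (miR-874) and 19.4 (miR-188). Their absence was thus not limited to the decompression arrays. Whether it goes with the file layout that sham shares with denervation replicates 1 and 2 was not tested. Of the 10 miRNAs too rarely detected elsewhere to be tested, miR-345-3p had the highest sham signal, 162, and was at least 57.6-fold lower. The rest were miR-134, miR-138*, miR-154, miR-23a*, miR-330*, miR-423, miR-708, miR-760-3p and miR-877, with sham signals between 15.4 and 67.6.

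In the opposite direction, 7 miRNAs (2.01%) were detected on all 3 decompression arrays and not on sham: let-7a, miR-126*, miR-148b-3p, miR-152, miR-185, miR-499 and miR-672. For let-7a the call itself is odd, since its sham signal was 3217, above its 2298 to 2490 after decompression. Other sham calls did not follow the signal either. let-7e* was called detected at an unscaled signal of −1.91. miR-185 was not, at a scaled 18.4, inside its 14.2 to 37.8 after decompression. The counts of 25 and 7 miRNAs detected on one side rest on these calls. Another 115 miRNAs were detected on sham and on all 3 decompression arrays, and 164 on none of the 4.

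Some miRNAs were still detected after release and differed greatly. miR-494 fell from 10287 on sham to 205, 231 and 184 on decompression 1, 2 and 3. All 3 arrays lay close together, 50.04-fold below sham in the mean (log2 difference −5.65, SE 0.64, adjusted p from limma 0.00025). miR-320 went from 154 to 9.75, 5.19 and 8.002 (log2 difference −4.38, adjusted p from limma 0.00021). It was detected on only 2 of the 3 decompression arrays, near the floor. miR-324-3p went from 967 to 87.3, 79.0 and 84.2 (log2 difference −3.53, SE 0.47, adjusted p from limma 0.00061), while the other arm of its hairpin, miR-324-5p, had 48.0 on sham and 44.7, 52.1 and 50.4. miR-204 went from 504 to 32.1, 82.1 and 35.1 (log2 difference −3.48, adjusted p from limma 0.014).

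The imprinted Dlk1-Dio3 locus held 12 of the 38 lower miRNAs, more than any other list, and also had the most tested members. This locus, on the rat's chromosome 6 (on GRCr8 the matched members lie within chr6:134326468-134579828), encodes many miRNAs read from the maternal copy, many of which are known from embryonic tissue, brain and developing muscle. The array holds 47 of them, of which 16 were tested. Of these 12 were lower and 0 higher in limma's test, against 22% lower and 9.83% higher over all 173. Their median log2 difference was −3.39, against −0.29 over all 173. By the 2-fold rule 13 were lower. Summed over all 47, with undetected members at the floor or their own signal, the total was 11447 on sham, of which miR-494 made up most, and 393 to 521 on the decompression arrays.

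Within the locus miR-300-3p had 150 on sham and 10.09, 8.37 and 10.8 after decompression (log2 difference −3.95, SE 0.73, adjusted p from limma 0.0038). miR-127, an antisense regulator of the imprinted gene Rtl1, had 119 on sham and 8.74, 6.77 and 11.5 (log2 difference −3.75). miR-136 had 209 on sham and 17.9, 20.2 and 23.6 (log2 difference −3.35). In each of the 3 the decompression arrays agreed to within 2-fold and lay more than 8-fold below sham. miR-329 was less even, with 146 on sham and 6.28, 22.5 and 7.53 after decompression (log2 difference −3.84, adjusted p from limma 0.0040). miR-410 (39.5 on sham, at least 13.5-fold lower), miR-341 (38.8, at least 13.8-fold), miR-411 (31.9, at least 11.3-fold), miR-376a (29.2, at least 10.4-fold) and miR-379 (28.4, at least 8.96-fold) were not detected on any decompression array. Of these, miR-410 and miR-341 reached the 3 arrays needed for the test only with sham counted. The tested members that missed the threshold were miR-299, miR-409-3p, miR-487b and miR-539, at −0.22, −1.34, −0.87 and −0.68. miR-337 (54.2 on sham and 3.60, 23.2 and 4.04 after decompression) and miR-434 (54.1 on sham and 11.2, 25.1 and 11.5) passed with adjusted p from limma 0.048 and 0.046, and still passed in 1 and 3 of the 9 fits that each left out an injury array.

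**Figure D2:**
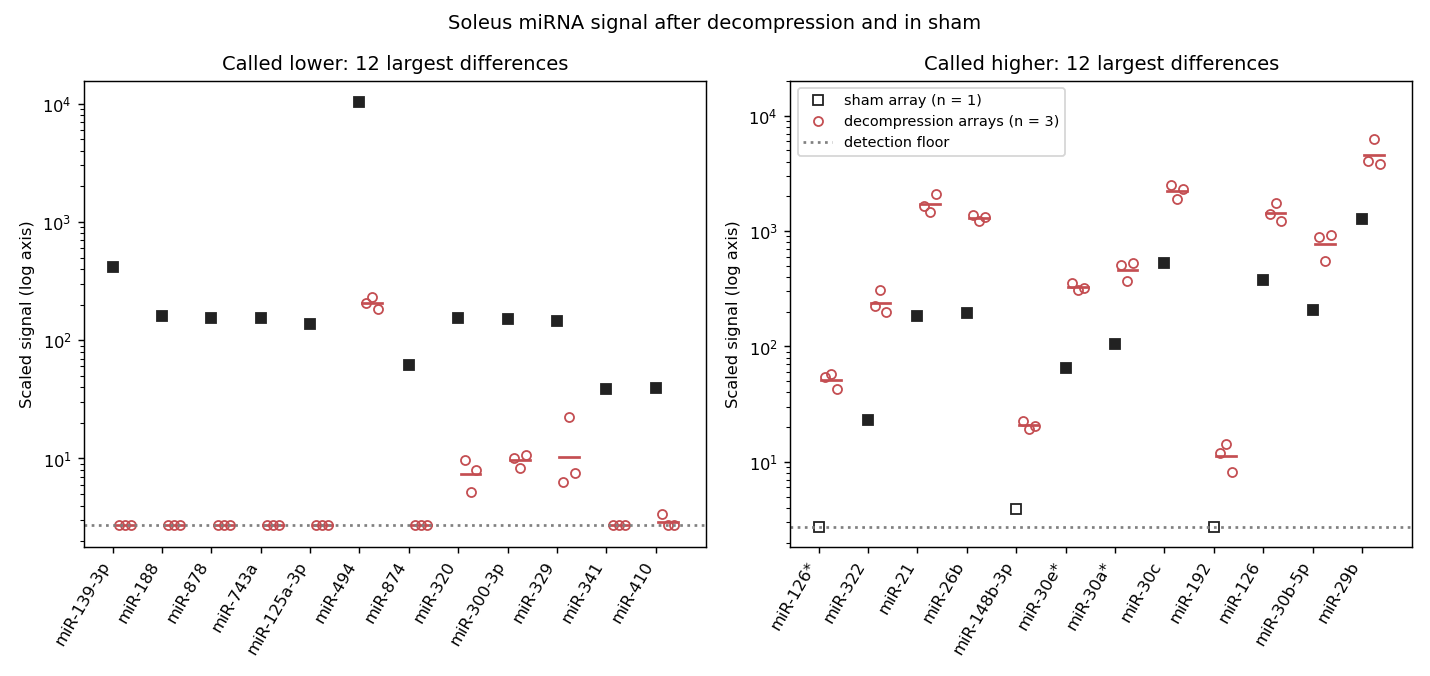
Scaled signal on a log axis for the 12 miRNAs with the most negative and the 12 with the most positive mean log2 difference among those called. Black squares are the sham array (open where not detected), red circles the 3 decompression arrays and red bars their geometric mean, and the dotted line is the detection floor of 2.72. On the left 7 of the 12 have all 3 decompression arrays at the floor. On the right every decompression array lies above sham.

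On the higher side both arms of miR-126 rose. miR-126 and its partner miR-126* are cut from an intron of Egfl7 and are known as endothelial miRNAs. miR-126 had 379 on sham and 1411, 1744 and 1228 on the decompression arrays, 3.81-fold higher in the mean (log2 difference 1.93, SE 0.39, adjusted p from limma 0.0059). miR-126* was not detected on sham and had 53.9, 57.8 and 43.2 after decompression, at least 18.9-fold higher (adjusted p from limma 5.52e-05). The list of vascular and smooth muscle miRNAs did not move as one: miR-145, known from smooth muscle, was lower (114 on sham and 41.7, 48.2 and 28.0 after decompression, log2 difference −1.57, adjusted p from limma 0.026), and miR-143 had 2707 on sham against 1689 to 2566. In RNA of whole muscle, a change in the number of such cells and a change in the RNA of each cell cannot be told apart.

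miR-21, which is widely induced by tissue injury and in fibrosis, had 183 on sham and 1639, 1478 and 2099 after decompression. The 3 arrays were 9.40-fold above sham in the mean (log2 difference 3.23, SE 0.44, adjusted p from limma 0.00063). Of the other members of the injury and fibrosis list, 2 were tested and neither passed.

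miR-322, a miRNA of the miR-15/16 seed family that slows the cell cycle and rises in differentiating myoblasts, had 23.3 on sham and 224, 308 and 200.3 after decompression (10.3-fold, log2 difference 3.37, SE 0.40, adjusted p from limma 0.00030). miR-195, of the same seed, had 338 on sham and 979, 1738 and 821 (log2 difference 1.73, adjusted p from limma 0.026). The other 3 tested members with the seed AGCAGCA lay closer to sham, at log2 differences of 0.96 for miR-15b, 0.37 for miR-497 and 0.17 for miR-16, and none passed. miR-322 and miR-195 match at 11 of 21 positions when set flush at the 5′ end.

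Members of a single seed also parted in the miR-26 and miR-30 families. miR-26b had 194 on sham and 1370.2, 1223 and 1315 after decompression (6.72-fold, log2 difference 2.75, SE 0.34, adjusted p from limma 0.00033). miR-26a, which matches it at 19 of 21 positions, had 4258 on sham and 5071, 4691 and 5045 (log2 difference 0.21, adjusted p from limma 0.63). In the miR-30 family 4 of 9 tested members were higher, miR-30c, miR-30b-5p, miR-30a* and miR-30e*, and 0 lower, with a family median of 0.08. Over all tested miRNAs 9.83% were higher and 22% lower. miR-30c had 534 on sham and 2534, 1890.0 and 2326 (log2 difference 2.07, adjusted p from limma 0.025). miR-30e, with the same seed and 17 of 22 positions in common, had 2010.3 on sham and 1875, 1736 and 1632.

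miR-148b-3p and miR-152, which share the seed CAGUGCA and match at 19 of 21 positions, were both higher. miR-148b-3p was not detected on sham and had 22.7, 19.1 and 20.5 after decompression, at least 5.26-fold higher, and miR-152 was at least 2.91-fold higher. Of the miR-29 family, which is known to restrain collagen messengers, 1 of 5 tested members was higher, against 9.83% over all tested miRNAs. This was miR-29b, with 1268 on sham and 4025, 6320 and 3841 (log2 difference 1.86, adjusted p from limma 0.028), while miR-29a and miR-29c were at 0.23 and 0.04. miR-196a, from the Hox clusters, had 67.6 on sham and 251, 216 and 255 (log2 difference 1.83, adjusted p from limma 0.012). miR-192 was the only one of the 12 most raised that was detected on just 1 decompression array, and its bound was at least 4.11-fold.

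The muscle-enriched miRNAs gave no common direction. Of 7 on the array 6 were tested, 1 was lower and 0 were higher, with a median log2 difference of 1.18. With the processed table, scaled in the same way, that median was −0.38, so no direction is given for the list. miR-133b, transcribed with miR-206, had 184170.0 on sham and 57819, 50175 and 56697 after decompression (3.36-fold lower, log2 difference −1.75, SE 0.48, adjusted p from limma 0.025). That call was lost with quantile scaling, in which this brightest miRNA is tied across arrays, and with no scaling, loess or the percentile over all miRNAs. miR-133a went the same way, from 6537 to 2480, 1762 and 2454 (log2 difference −1.57, adjusted p from limma 0.20).

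miR-206 had 3799 on sham and 5010, 23138 and 2587 after decompression. Decompression 2 stood far above the other 2, the mean log2 difference was 0.82 (adjusted p from limma 0.62), and without that array it was −0.08. miR-499, encoded in the myosin gene Myh7b, was as uneven, with 3.35 on sham and 24, 221 and 3.29 (adjusted p from limma 0.29). miR-1*, the other arm of a miR-1 hairpin, had 3.44 on sham and 12.3, 27.2 and 10.4 (log2 difference 2.14, adjusted p from limma 0.27). All 3 of its decompression arrays lay above sham, and its spread was widest among the denervation arrays (2.72 to 41.8). miR-1 had 13071 on sham and 41284, 29455 and 46235, a log2 difference of 1.55 (adjusted p from limma 0.23). With the processed table, scaled in the same way, it was −2.73 (adjusted p from limma 0.016), and miR-499 was 6.27 (adjusted p from limma 0.027). The direction of miR-1 thus depends on which deposited value is read, and for miR-1 and miR-499 no direction is given here.

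Other families were described by their counts, to be read against the 22% lower and 9.83% higher over all tested miRNAs. In the miR-125 and miR-99/100 families, 5 of 8 tested members were lower and 0 higher (median −1.22), among them miR-125b-5p, a regulator of muscle regeneration, with 2457 on sham and 1012, 911 and 944 (log2 difference −1.36, adjusted p from limma 0.027), and miR-99b (61.4 on sham and 16.9, 19.7 and 17.7). In the miR-181 family 2 of 3 were lower (median −1.94). miR-181b had 104 on sham and 23.9, 28.7 and 29.3 (log2 difference −1.94, adjusted p from limma 0.0068), and miR-181a had 365 and 125, 116 and 177 (log2 difference −1.42, adjusted p from limma 0.017). In the proliferation-linked miR-17-92 cluster and its paralogs 2 of 7, miR-92a and miR-93, were lower (log2 differences −1.83 and −1.90), with a median of −1.13. That count is near the share over all miRNAs, and both calls were lost with no scaling, quantile scaling, the loess and the percentile over all miRNAs, as were those of miR-181b and miR-99b. In the X-linked cluster of miR-188, miR-500 and miR-532, 2 of 3 were lower, miR-188 and miR-532-5p (53.3 on sham and 17.2, 18.3 and 11.6).

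Several abundant families showed no calls. None of the 10 tested let-7 members passed (median −0.08, range −0.57 to 1.75), nor any of the 6 members of the miR-23/24/27 clusters (median 0.92, all above 0) or of the 4 metabolic miRNAs of the miR-103, miR-107 and miR-378 group (median −0.43). In the Hox-cluster list of miR-10 and miR-196, 1 of 5 passed, and in the cluster of miR-199a and miR-214 the arms of miR-199a passed in opposite directions.

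Markers of other cells were uneven as well. Of the erythroid miRNAs, both tested, 0 passed; their summed signal was 1244 on sham and 207 to 1265 on the decompression arrays, where miR-451 had 811 on sham and 1077, 178 and 197 on decompression 1, 2 and 3. Of the leukocyte miRNAs 1 of 6 was lower, miR-142-5p (54.7 on sham and 17.6, 11.05 and 7.14, log2 difference −2.29, adjusted p from limma 0.025), and the sum was 832 on sham and 431 to 588 after decompression. Of 12 neuronal miRNAs 2 were tested and 0 passed, with miR-9 and miR-124 detected on none of the 4 arrays. Of the glial and myelin list 1 of 3 was lower, miR-338*, which was close to the floor on sham (7.31, at least 2.59-fold). The part of blood, leukocyte or nerve content in the other differences was not tested.

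**Figure D3:**
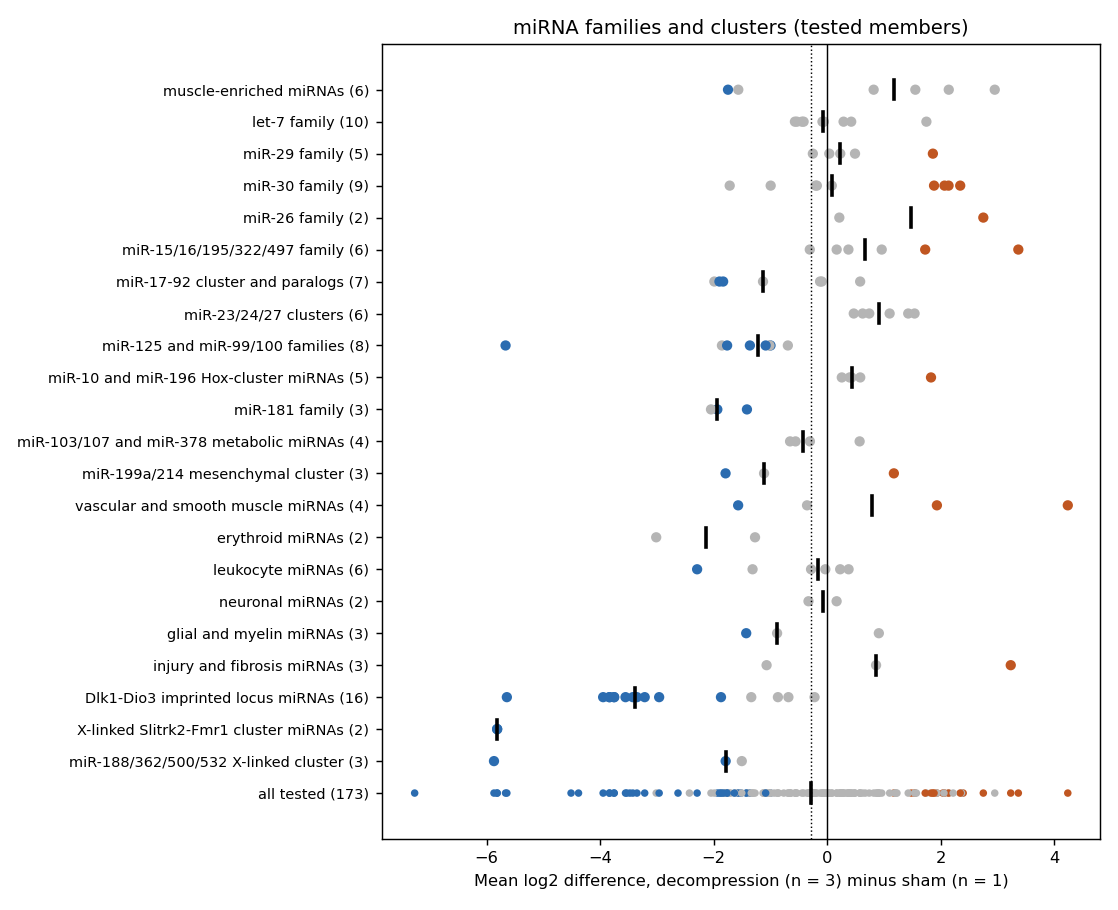
Mean log2 difference between decompression and sham for every tested member of the 22 lists and for all 173 tested miRNAs (bottom). Blue points were called lower, orange points higher and grey points not called, the thick bars are medians, and the dotted line is the median of all tested miRNAs, −0.29. The 16 Dlk1-Dio3 members, the most tested in any list, have a median of −3.39. Of them 12 are blue, also the most in any list.

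Both arms of a hairpin come from 1 precursor, and for 24 hairpins both were tested. Only miR-126 had both arms called in the same direction. miR-199a had them called in opposite directions, with miR-199a-5p at 323 on sham and 82.4, 132 and 74.6 after decompression (log2 difference −1.79, adjusted p from limma 0.048) and miR-199a-3p at 138 on sham and 295, 348 and 291 (log2 difference 1.17, adjusted p from limma 0.0497). In 12 hairpins 1 arm was called and in 10 none. The widest gap was in miR-139, with its 3p arm at −7.27 and its 5p arm at 1.21, followed by miR-125a, with −5.67 for the 3p arm and −1.02 for the 5p arm. miR-193* was lower (16.8 on sham and under the floor on all 3 decompression arrays), while miR-193 had 191 on sham and 401, 172 and 406. miR-193* reached the 3 arrays needed for the test only with sham counted. Whether the 2 arms of a hairpin differed from each other was not tested.

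Base composition went along with direction. For 151 of the 173 tested miRNAs a mature sequence was found, 26 under the array's own name and 125 with an arm added to the older name. The median share of G and C was 50% in the 34 called lower that had a sequence and 40.9% in the 15 called higher, against 45.5% in all 151. Of the 57 miRNAs with 50% or more, 21 were called lower and 1 higher. Of the 65 with 40% to under 50% these counts were 11 and 10, and of the 29 under 40% they were 2 and 4. Over the 151 miRNAs, which share the same 4 arrays, Pearson's r between G and C content and the difference from sham was −0.31 and Spearman's rho −0.26, and for decompression 1, 2 and 3 alone rho was −0.30, −0.22 and −0.29. For the 143 of them tested in both tissues Spearman's rho was −0.26 for soleus and −0.01 for DRG values. The part of base composition in the differences was not tested.

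**Figure D4:**
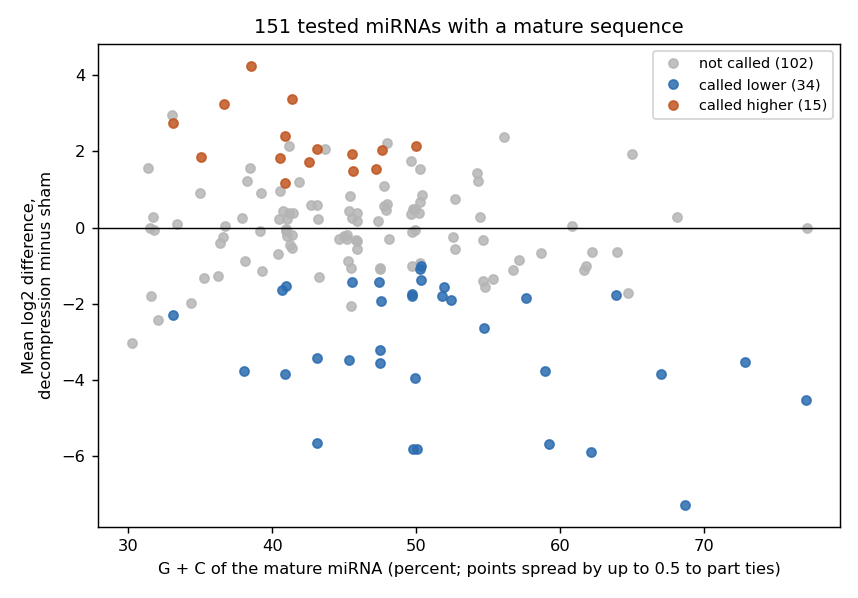
Mean log2 difference from sham against the share of G and C in the mature sequence, for the 151 tested miRNAs with a RefSeq sequence. Blue points were called lower (34), orange points higher (15) and grey points not called. Points were spread sideways by up to 0.5 to part ties. At 50% or more, 21 of the 22 called miRNAs are lower.

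To ask how far the released muscle differed from muscle still entrapped, the same fit compared decompression with entrapment. Rats of the decompression group lived 3 months longer after the tube was placed than those of the entrapment group, so that release and time cannot be told apart. No miRNA of 173 (0%) passed limma's test at an adjusted p of 0.05, and at an unadjusted p of 0.05 there were 6 lower and 0 higher after decompression. The median difference was 0.04. The 95% interval of the difference, not adjusted for the number of miRNAs, reached 0.81 to either side in the median miRNA. In a miRNA with such an interval, a smaller difference would not reach an unadjusted p of 0.05. Where the interval was narrower a smaller difference could reach it, as did the −0.66 of miR-199a-3p. Larger differences could also miss the adjusted threshold. The −2.13 of miR-139-3p, for example, did not pass. For 8 of the 173 (4.62%) the 3 decompression arrays lay wholly outside the range of the 3 entrapment arrays. Among the 55 miRNAs that passed against sham there were 6 such, all below the entrapment arrays: miR-100, miR-125a-3p, miR-136, miR-199a-3p, miR-300-3p and miR-410.

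Single miRNAs ranged from values close to those of entrapment to values more than 2-fold below them. miR-126* had 36.2 to 58.6 on the entrapment arrays, against 43.2 to 57.8 after decompression, a difference of 0.04 (95% interval −0.58 to 0.66). miR-21 had 1531 to 2992 on the entrapment arrays and differed by −0.35 (95% interval −1.06 to 0.35). miR-494 had 173 to 210 on the entrapment arrays and differed by 0.12 (95% interval −0.91 to 1.15). miR-136 had 36.3 to 77.2 on the entrapment arrays against 17.9 to 23.6 after decompression, a difference of −1.20 (95% interval −2.11 to −0.29), and was among the 6 below an unadjusted p of 0.05 with adjusted p from limma 1. miR-300-3p, with 15.5 to 63.1 on the entrapment arrays, differed by −1.43 (95% interval −2.59 to −0.26). The most negative difference was that of miR-139-3p, at the floor on all 3 decompression arrays and between the floor and 29.6 on the entrapment arrays, with −2.13 (95% interval −4.18 to −0.07). miR-410, with 4.44 to 11.5 on the entrapment arrays, differed by −1.19 (95% interval −2.20 to −0.17), and miR-199a-3p, with 362.4 to 668.5 there, by −0.66 (95% interval −1.29 to −0.02). The adjusted p from limma was 1 for each of these. Both comparisons with sham rest on the same sham array. Against it, the differences after entrapment were 4.20 for miR-126*, 3.59 for miR-21, −5.76 for miR-494, −2.15 for miR-136 and −2.52 for miR-300-3p.

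**Figure D5:**
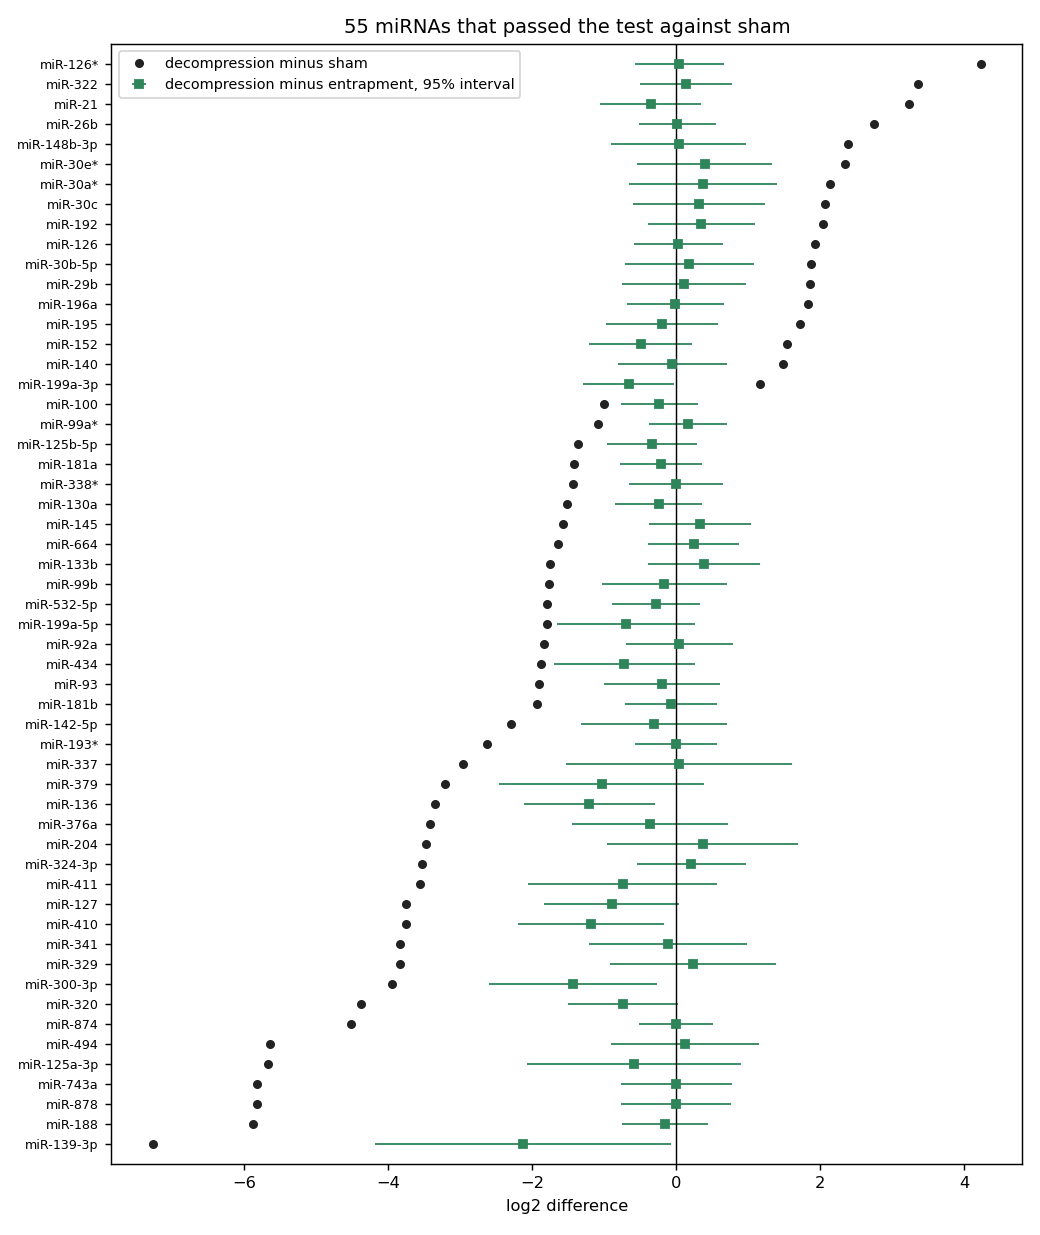
For the 55 miRNAs that passed the test against sham, the log2 difference between decompression and sham (black) and between decompression and entrapment (green squares with 95% intervals). The black points run from −7.27 for miR-139-3p to 4.24 for miR-126* and the green squares from −2.13 for miR-139-3p to 0.40 for miR-30e*. The intervals of miR-139-3p, miR-300-3p, miR-136, miR-410 and miR-199a-3p lie below 0. Squares at exactly 0 belong to miRNAs at the floor in both groups.

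The most similar comparison that does not use the soleus sham array is decompression against sham in the DRGs. In the processed table the DRG columns of the 6 entrapment and decompression arrays match the scanner files of the other group, so the labels of those 6 DRG files are uncertain. Of the 162 miRNAs tested in both tissues, 46 (28.4%) had a difference from sham that differed between soleus and DRGs in limma's test, 28 lower and 18 higher in soleus. With the DRG entrapment files read as decompression there were 42, of which 41 were the same. The 5 largest were miR-126* (4.24 in soleus and −1.68 in DRGs, adjusted p from limma 2.08e-08), miR-139-3p (−7.27 and −1.51, adjusted p from limma 0.0071), miR-494 (−5.65 and 0.06, adjusted p from limma 0.00014), miR-300-3p (−3.95 and 0.29, adjusted p from limma 0.0012) and miR-341 (−3.84 and 0.34, adjusted p from limma 0.0011). In the DRGs miR-126* had 64.9 on sham, where the soleus sham array did not detect it. Of the 51 miRNAs called in soleus and tested in both tissues, 42 were among the 46. The contrast between tissues uses the soleus sham and decompression arrays again, so this overlap is not independent of the soleus calls.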

How the data were processed

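Agilent rat miRNA arrays with 1 colour were analysed: 3 of decompression, 1 of sham and 6 of entrapment or denervation in soleus, and 10 of DRGs. The authors deposited for each array the total gene signal of every miRNA, a background-subtracted intensity on a linear scale from Agilent Feature Extraction 9.5.3 that is not normalized between arrays, with its error and a detection call. The processed table deposited by the authors holds a signal per miRNA of another, unstated scale, and was used as an alternative. Its columns also carry the DRG arrays. The study's methods name a rank-consistency LOWESS step and a 2-fold change from sham without settings. The labels describe Cy3-CTP amplification and the methods pCp-Cy3 ligation.

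Control features and the 2 of 350 miRNAs with different names between files were left out. The 75th percentile over miRNAs detected on every soleus array (in DRGs, over all miRNAs) was brought to a common value. The floor was the lowest scaled signal with a detection call, as a median over arrays (2.72 in soleus and 2.28 in DRGs). Smaller signals were raised to it before the log2 step. Where 3 or more of 10 arrays detected a miRNA, it entered limma 3.58.1 (lmFit, eBayes) in R 4.3.3, with a group term alone, 6 residual and 3.07 prior degrees of freedom, two-sided, with Benjamini-Hochberg adjustment at 0.05. The 1 sham array was assumed to vary like the injury groups. The labels do not say that replicates are separate rats, and the p-values then measure the spread between these samples. A fold given as "at least" compares the mean of the detected side with the lowest detectable signal. The contrast between tissues was fitted over all 20 arrays. Slides and scans are not given in the files used here.

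Named are the 12 called miRNAs with the most negative and the 12 with the most positive difference that moved the same way on 3 of 3 arrays, every tested muscle-enriched miRNA, up to 3 called members of each other list, and the 5 largest in the tissue contrast. Others were named after their values were seen. The members and the 22 lists were chosen with earlier results of these data known. On simulated data for decompression against sham (173 miRNAs, 40 changed by a log2 size of 2), limma recovered 23 with 0 false calls and the fold rule 31 with 3. In the tissue contrast (162 miRNAs, 40 changed by the same size) limma recovered 10 with 0 false calls. The number of arrays limits the precision. The study's spinal, PCR and hybridization data were not used here. Figures and sequences were handled in Python 3.11.15.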

Additional observations from a re-analysis of the deposited data

Results flagged for a closer look

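The contrast between tissues picked out 46 of 162 miRNAs whose difference between decompression and sham was not the same in soleus as in DRGs (limma, adjusted p of 0.05). Values below are the soleus difference minus the DRG difference on the log2 scale, for the named miRNAs among them. The labels of the DRG entrapment and decompression files are uncertain, and each tissue rests on 1 sham array of its own.

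Among the miRNAs lower in soleus the difference between tissues was −5.76 for miR-139-3p, −5.70 for miR-494, −4.24 for miR-300-3p, −4.17 for miR-341, −4.13 for miR-320, −3.92 for miR-410, −3.89 for miR-329, −3.79 for miR-874 and −3.45 for miR-125a-3p. It was smaller for miR-92a (−2.21), miR-133b (−2.16), miR-93 (−1.95), miR-532-5p (−1.77), miR-181b (−1.42), miR-125b-5p (−1.39) and miR-181a (−1.23).

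Among the miRNAs higher in soleus it was 5.91 for miR-126*, 3.72 for miR-322, 3.18 for miR-30c, 3.12 for miR-21, 2.83 for miR-192, 2.65 for miR-26b, 2.63 for miR-30b-5p, 2.37 for miR-148b-3p, 2.34 for miR-30e*, 2.08 for miR-196a, 1.97 for miR-126, 1.55 for miR-195 and 1.27 for miR-199a-3p. Of these, miR-126*, miR-30c and miR-30b-5p differed from sham in the DRGs too, in the other direction (−1.68, −1.12 and −0.75 on the log2 scale, adjusted p from limma 4.29e-05, 4.80e-05 and 0.0015).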

How the results depend on the processing

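The single sham array limits every comparison, and no alternative adds to it. The counts against sham (lower and higher by limma, then lower and higher by the 2-fold rule) were 6, 6, 20 and 65 without scaling, 23, 31, 28 and 40 with quantile scaling, 21, 18, 27 and 30 with the loess, 20, 37, 21 and 41 with the percentile over all miRNAs, 20, 13, 23 and 14 over the 108 miRNAs detected on all 10 arrays, and 1, 0, 16 and 2 with the processed values as deposited, whose array constants differ (for decompression 2 it is 1222, against 52.2 to 100 on sham and the other decompression arrays). Scaled to their 75th percentile they gave 40, 18, 48 and 23. With no filter limma called 54 lower and 11 higher. Leaving out each injury array gave 28 to 50 lower and 11 to 22 higher by limma, 47 to 59 and 23 to 30 by the fold rule, with 11 higher without decompression replicate 1, and 25 lower and 10 higher miRNAs passed in all 9 of these fits. Detection on sham only ranged from 25 to 28, and detection on decompression only from 7 to 13 (13 without decompression replicate 2, 16 where 2 of 3 arrays were enough). Against entrapment 1 miRNA passed with a floor of 0.01 on the unscaled signal and 0 without any of the injury arrays. The tissue contrast called 19 without scaling, 70 with no filter, 30 over miRNAs detected on all arrays of both tissues, and 39 to 71 leaving out each injury array, 71 without soleus denervation replicate 3. The replicate block gave 20 lower and 7 higher. Deviations of same-numbered arrays from their group had correlations of −0.47 to 0.21. With 3 arrays in a group, these cannot show whether equal numbers mark a shared slide or batch. miR-1 reversed to −2.01 with the processed values and −2.73 with these scaled. Leaving out each decompression array, miR-206 ranged from −0.078 (without replicate 2) to 1.503. The causes were not tested. Chosen after seeing the data, a fit without the 2 denervation arrays of the sham file's layout called 41 lower and 16 higher, and one without the miRNAs whose processed and scanner values differ 35 and 17.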
